A study of Xenopus laevis with 12 samples.

Results

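Sox3 peaks at transcription termination sites (TTS) are the ChIP-seq peaks to which HOMER, the program that annotated the lists, gave an annotation beginning with TTS, and every such peak in the lists of both stages was taken. They numbered 5005 of 129376 peaks, with 229 of 5300 at stage 11.5 and 4776 of 124076 at stage 9. At stage 11.5 the samples were 3 Sox3 libraries and 3 control libraries from animal pole explants of wild type Xenopus laevis embryos. Wnt8a and Chordin mRNA induced the neural plate border in the explants of both groups, and those of the Sox3 group also received mRNA for Myc-tagged Sox3. At stage 9 the samples were 3 libraries from blastula animal pole explants, called blastula stem cells, that received the Sox3 mRNA alone, and 3 control libraries from explants for which no treatment is given. Chromatin of all 4 groups was pulled down through the Myc tag, so the peaks report the injected Sox3 and not the endogenous protein.

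Sox3 is a SoxB1 transcription factor, a group of HMG box proteins that bind DNA in blastula stem cells and later in the neural ectoderm and that maintain uncommitted states. HOMER calls a peak a TTS peak when its centre falls in a window that opens just before an annotated transcript end and closes shortly beyond it. Promoters take precedence over transcript ends in that annotation, so a peak that lies at a transcript end and also at the start of a neighbouring gene is called a promoter peak. The label therefore places a peak at the end of a gene without saying which gene, if any, it acts on, and HOMER reports the closest transcription start site (TSS) separately. The transcript whose end lies at a peak is called the named transcript below.

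The authors called 1 peak list per stage with Genrich from the libraries of that stage, so the lists hold no value per replicate, the depth behind each peak is unknown, and peaks are not replicates. Stage 11.5 libraries were sequenced on another instrument (NovaSeq) than stage 9 libraries (NextSeq), so stage and sequencing run cannot be told apart in any difference between the lists. Only the stage 11.5 explants are described as induced to the neural plate border, so stage and induction cannot be told apart either. Each share was set against its counterpart with Fisher's exact test (two-sided), and the exact p-values were adjusted by the Benjamini-Hochberg method. Intervals in parentheses are Wilson 95% intervals and hold counting error alone.

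TTS peaks made up 4.32% (3.81 to 4.90%) of the stage 11.5 list and 3.85% (3.74 to 3.96%) of the stage 9 list. The difference of 0.472 percentage points did not pass the test (adjusted exact p = 0.112), although it did among peaks at or above the median score of each list (difference 0.967 points, adjusted exact p = 0.0219). The stage 11.5 peaks covered 42706 bp at the ends of 217 transcripts, and the stage 9 peaks covered 1406009 bp at the ends of 4508 transcripts. Of the named transcripts, 208 of 217 at stage 11.5 and 4249 of 4508 at stage 9 carried a single TTS peak. In the 397 cases where a transcript had more than 1 such peak over both lists, the centres of the outermost peaks lay a median of 338.5 bp apart, and 1069.5 bp at most.

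The first question was whether the transcript that ends at a TTS peak is also the one whose start is nearest. At stage 11.5 the named transcript had the nearest TSS at 124 of 229 peaks (54.1%, 47.7 to 60.5%), against 2128 of 4776 peaks (44.6%, 43.2 to 46.0%) at stage 9. The share was 9.59 percentage points higher at stage 11.5 (odds ratio 1.47, adjusted exact p = 0.0117). On assembled chromosomes alone the shares were 52.1% at stage 11.5 and 43.6% at stage 9, and the difference no longer passed (adjusted exact p = 0.0546). A nearest-TSS assignment therefore gave 105 of these peaks at stage 11.5 and 2648 at stage 9 to another transcript identifier, which may be another transcript of the same gene.

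TTS peaks lay close to a start. From the peak centre to the closest TSS, the median was 1095 bp at stage 11.5 (quartiles 501 and 2548 bp, range 102 to 55033 bp) and 1228.5 bp at stage 9 (quartiles 601 and 3709.8 bp, range 101 to 281044 bp). The centre was within 5 kb of a TSS for 204 of 229 peaks at stage 11.5 (89.1%, 84.4 to 92.5%) and for 3822 of 4776 at stage 9 (80.0%, 78.9 to 81.1%). Of all peaks with a nearest TSS, 40.8% at stage 11.5 and 33.4% at stage 9 lay within that distance. The difference between the stages among TTS peaks, 9.06 percentage points, passed the test (odds ratio 2.04, adjusted exact p = 0.00133), and it accompanied one of the same direction in the whole lists. The difference among TTS peaks did not pass among peaks at or above the median score of their list (86.3% at stage 11.5, 80.6% at stage 9, adjusted exact p = 0.192) or with a limit of 2 kb (69.4% at stage 11.5, 63.1% at stage 9, adjusted exact p = 0.106).

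The share within 5 kb of a start was also higher than that of exon peaks. Of exon peaks, 79.5% at stage 11.5 and 66.1% at stage 9 lay within 5 kb of a TSS. TTS peaks exceeded them by 9.58 percentage points at stage 11.5 (adjusted exact p = 0.00742) and by 14.0 points at stage 9 (adjusted exact p = 7.48e-58). This comparison was added after the data had been seen. It holds for the 5 kb limit and not for every measure of distance. The median distance of exon peaks was 924 bp at stage 11.5, below the 1095 bp of TTS peaks. At stage 9 it was 1925 bp, above the 1228.5 bp of TTS peaks. The lower quartile was smaller for exon peaks at both stages (358.5 bp at stage 11.5 and 417 bp at stage 9, against 501 and 601 bp for TTS peaks).

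When the named transcript was itself the nearest, the median distance of its start was 1113.5 bp for stage 11.5 and 1309.5 bp for stage 9. Such a peak was within 1 kb of the start of the transcript that ends there in 53 of 124 cases (42.7%) at stage 11.5 and in 826 of 2128 (38.8%) at stage 9. Within 5 kb the counts were 116 (93.5%) at stage 11.5 and 1760 (82.7%) at stage 9. Start and end of the named transcript were thus close together at most of these peaks. Where another transcript was nearest, the median was 919 bp for stage 11.5 and 1160 bp for stage 9.

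**Figure D1:**
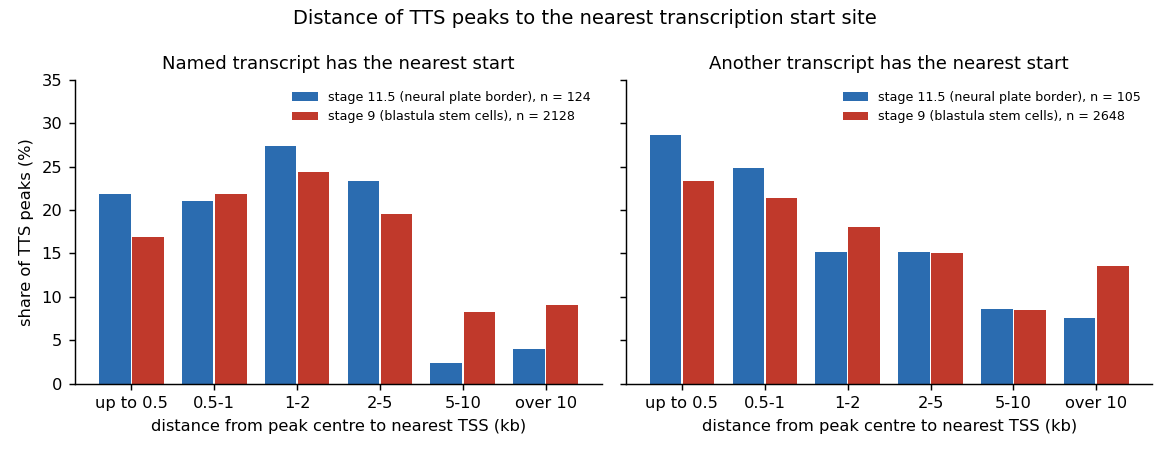
Share of TTS peaks (%) in bins of distance from the peak centre to the nearest TSS (kb), at stage 11.5 (blue) and stage 9 (red), for peaks whose named transcript has the nearest start (left) and peaks where another transcript does (right). On the left the bins above 5 kb held 3 and 5 of 124 peaks at stage 11.5, against 176 and 192 of 2128 at stage 9, while on the right the bin up to 0.5 kb was the fullest at both stages (28.6% at stage 11.5, 23.4% at stage 9).

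TTS peaks seldom lay upstream of the nearest start. At stage 11.5, 22 of 229 peaks (9.61%, 6.43 to 14.1%) were upstream of their nearest TSS, and at stage 9, 520 of 4776 (10.9%, 10.0 to 11.8%), a difference that did not pass (adjusted exact p = 0.663). At both stages every one of these upstream peaks had another transcript as its nearest, which follows from the place of a TTS peak at the end of its named transcript. They lay a median of 3580.5 bp from that start at stage 11.5 and 5702.5 bp at stage 9, and the closest was 1214 bp away at stage 11.5 and 1013 bp away at stage 9, since closer places belong to the promoter class. The 83 peaks at stage 11.5 and 2128 peaks at stage 9 downstream of another transcript's start were nearer to it, with medians of 688 bp at stage 11.5 and 887 bp at stage 9.

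The position and strand of a start could be solved from the lists themselves wherever peaks at different places shared a nearest promoter, which gave 26935 of 45796 transcripts (58.8%). The distance from the peak to the start of its named transcript was then known for 158 of 229 TTS peaks at stage 11.5 and 2966 of 4776 at stage 9, including those where the named transcript was nearest. The medians were 1267.5 bp (quartiles 722.9 and 2726 bp) at stage 11.5 and 1671 bp (quartiles 794.6 and 6623.2 bp) at stage 9. None of these peaks lay before the start of its named transcript at either stage, which follows from their place at the transcript end. Since solving needs peaks near the start, long transcripts and transcripts with few peaks are less often included, and these medians are not those of all members.

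Where another transcript was nearest and both starts were solved, the arrangement of the transcripts could be read for 31 of 105 peaks at stage 11.5 and 657 of 2648 at stage 9. In the commonest arrangement both transcripts ran on the same strand and both began before the peak, at 16 peaks (51.6%) at stage 11.5 and 376 peaks (57.2%) at stage 9. Their starts lay a median of 412.9 bp apart at stage 11.5 and 566.4 bp at stage 9, and 11 of the 16 pairs at stage 11.5 and 213 of the 376 at stage 9 were within 1 kb of each other. Transcripts placed this way include alternative starts of 1 gene, which the internal identifiers cannot separate from neighbouring genes. The nearest transcript began beyond the peak on the same strand at 6 peaks (19.4%) at stage 11.5 and 136 (20.7%) at stage 9. It ran towards the named transcript from beyond the peak, an end-to-end arrangement, at 8 peaks (25.8%) at stage 11.5 and 127 (19.3%) at stage 9. With 31 resolved peaks at stage 11.5, these shares were given without a test.

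**Figure D2:**
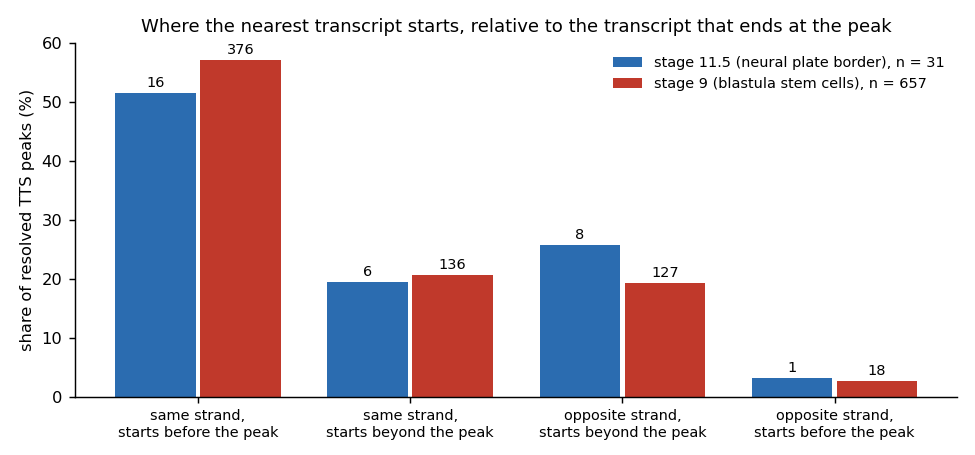
Share of resolved TTS peaks (%) by the strand and the start of the nearest transcript relative to the named transcript, at stage 11.5 (blue, 31 peaks) and stage 9 (red, 657 peaks), with the number of peaks above each bar. The same-strand class with both starts before the peak was the largest at both stages, with 16 peaks at stage 11.5 and 376 at stage 9.

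Exon numbers appear in the lists only for transcripts that also have a peak in an exon or intron. They were known for 51 of the 217 transcripts with a TTS peak at stage 11.5, of which 6 had a single exon, 13 had 2 and 32 had more, with a median of 3. At stage 9 they were known for 1103 of 4508 transcripts, with a median of 6, and 66 had a single exon and 166 had 2. These subsets were reached through other peaks, so the medians were not compared by a test.

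TTS peaks were narrower at stage 11.5. Their median width was 149 bp at stage 11.5 (quartiles 88 and 230 bp, range 41 to 1107 bp) and 228.5 bp at stage 9 (quartiles 131 and 396 bp, range 36 to 2485 bp). Peaks wider than 200 bp were 79 of 229 (34.5%) at stage 11.5 and 2681 of 4776 (56.1%) at stage 9, 21.6 percentage points fewer at stage 11.5 (odds ratio 0.412, adjusted exact p = 6.71e-10). The whole lists differed in the same way, with 30.7% of all peaks over 200 bp at stage 11.5 and 55.9% at stage 9. Against the other peaks of the same list, the share of wide TTS peaks was 3.93 points higher at stage 11.5 (adjusted exact p = 0.342) and 0.229 points higher at stage 9 (adjusted exact p = 0.766), and neither difference passed. The stage difference in width among TTS peaks therefore accompanied one of the same direction in the whole lists.

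The peak score is the authors' value from the peak caller, a whole number that stops at 1000. Each list was scored in its own peak calling, and whether scores are on the same scale in both lists was not tested. Scores set side by side for the stages, here and below, can therefore not be read as a difference in Sox3 binding. The median score of TTS peaks was 425 at stage 11.5 and 496 at stage 9. The maximum was reached by 53 of 229 TTS peaks (23.1%, 18.2 to 29.0%) at stage 11.5 and by 874 of 4776 (18.3%, 17.2 to 19.4%) at stage 9, beside 19.9% of all peaks at stage 11.5 and 18.8% at stage 9. The stages did not differ past the threshold (4.84 percentage points, adjusted exact p = 0.106), and neither did TTS peaks and the other peaks of their list (adjusted exact p = 0.342 at stage 11.5 and 0.476 at stage 9). The other peaks were not uniform, since at stage 11.5 the maximum was reached by 12.7% of exon peaks, 10.1% of intron peaks, 8.57% of promoter peaks and 21.4% of intergenic peaks. These classes held only the 4544 of 5071 other peaks that have a nearest TSS. The remaining peaks have no such class and are also part of the comparison. At the maximum were 36 of 283 exon, 156 of 1537 intron, 54 of 630 promoter and 448 of 2094 intergenic peaks. Of all 5071 other peaks, 1003 (19.8%) were at the maximum. The peaks without a class therefore had a higher share at the maximum than any of these classes, though it was not computed separately. The test of TTS peaks against the other peaks included them and was not run without them. Against exon peaks alone, a comparison chosen after the data had been seen, the share of TTS peaks was 10.4 percentage points higher at stage 11.5 (adjusted exact p = 0.00602) and 2.89 points higher at stage 9 (adjusted exact p = 3.17e-04). The area of a peak, here the product of score and width over 1000, had a median of 54.7 at stage 11.5 and 98.3 at stage 9. With a minimum area of 40 in place of the authors' 20, which removed 91 of 229 TTS peaks at stage 11.5 and 1099 of 4776 at stage 9, the shares at the maximum were 38.4% at stage 11.5 and 23.7% at stage 9 (adjusted exact p = 3.69e-04). Area contains the score, and a peak at the maximum has an area equal to its width, so the cut removed mainly peaks below the maximum. The difference after the cut can therefore not be separated from the cut itself.

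A TTS peak was seldom accompanied by another peak of its named transcript at stage 11.5. Another peak was annotated to that transcript or had it as nearest promoter for 69 of 229 TTS peaks (30.1%, 24.6 to 36.4%) at stage 11.5 and for 3274 of 4776 (68.6%, 67.2 to 69.9%) at stage 9. The share was 38.4 percentage points lower at stage 11.5 (odds ratio 0.198, adjusted exact p = 3.60e-30), and the whole lists were further apart in the same direction, since 33.9% of all peaks with a named transcript had such a companion at stage 11.5 and 86.9% at stage 9. A longer list leaves more peaks per transcript, and the lists held 5300 peaks at stage 11.5 and 124076 at stage 9. The test can therefore not separate this stage difference from the length of the lists. Within each list the share for TTS peaks lay between those for promoter peaks (22.1% at stage 11.5) and exon peaks (31.8%) at stage 11.5, and below those for promoter peaks (71.4%), exon peaks (82.8%) and intron peaks (92.5%) at stage 9.

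Intergenic peaks were the most frequent companions, and they were also the largest class of each list (2094 of 5300 peaks at stage 11.5, 50551 of 124076 at stage 9). They were counted by nearest promoter and the other classes by annotation, so the counts are not fully alike. Another TTS peak accompanied nearly as many TTS peaks at stage 11.5 (21 of 229, 9.17%). At stage 11.5 a promoter peak of the same transcript accompanied 15 of 229 TTS peaks (6.55%), an intron peak 15, an exon peak 6 and an intergenic peak assigned by its nearest promoter 23 (10.0%). At stage 9 the counts of 4776 were 841 for promoter peaks (17.6%), 889 for intron peaks (18.6%), 424 for exon peaks (8.88%) and 1263 for intergenic peaks (26.4%). TTS peaks with a promoter peak of the same transcript identifier were thus a minority at both stages. A promoter peak labelled with another transcript of the same gene was not counted. The share with a promoter companion was not computed for exon peaks, intron peaks or the whole lists.

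Another peak at the same transcript end was found for 21 of 229 TTS peaks at stage 11.5 (9.17%, 6.08 to 13.6%) and for 527 of 4776 at stage 9 (11.0%, 10.2 to 12.0%). This difference did not pass (-1.86 percentage points, stage 11.5 minus stage 9, adjusted exact p = 0.504) and it turned round with stricter peak sets. Among peaks at or above the median score of their list the shares were 15.3% at stage 11.5 and 4.69% at stage 9 (adjusted exact p = 5.81e-05), and with a minimum area of 40 they were 12.3% at stage 11.5 and 6.72% at stage 9 (adjusted exact p = 0.0243). The 21 peaks at stage 11.5 belonged to 9 transcripts, so this share rests on few places.

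Xenopus laevis is an allotetraploid whose chromosomes come as a longer L copy and a shorter S copy from different ancestral species. On assembled chromosomes, 68 of 188 TTS peaks (36.2%, 29.6 to 43.3%) lay on an S chromosome at stage 11.5, and 1907 of 4436 (43.0%, 41.5 to 44.5%) at stage 9. Of all peaks on assembled chromosomes, 42.3% at stage 11.5 and 44.8% at stage 9 lay on an S chromosome. The difference between the TTS peaks of the stages, -6.82 percentage points for stage 11.5 minus stage 9, did not pass (adjusted exact p = 0.106). Scaffolds not placed on a chromosome held 41 TTS peaks (17.9%) at stage 11.5 and 340 (7.12%) at stage 9, close to their shares of the whole lists (18.2% at stage 11.5 and 7.13% at stage 9).

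**Figure D3:**
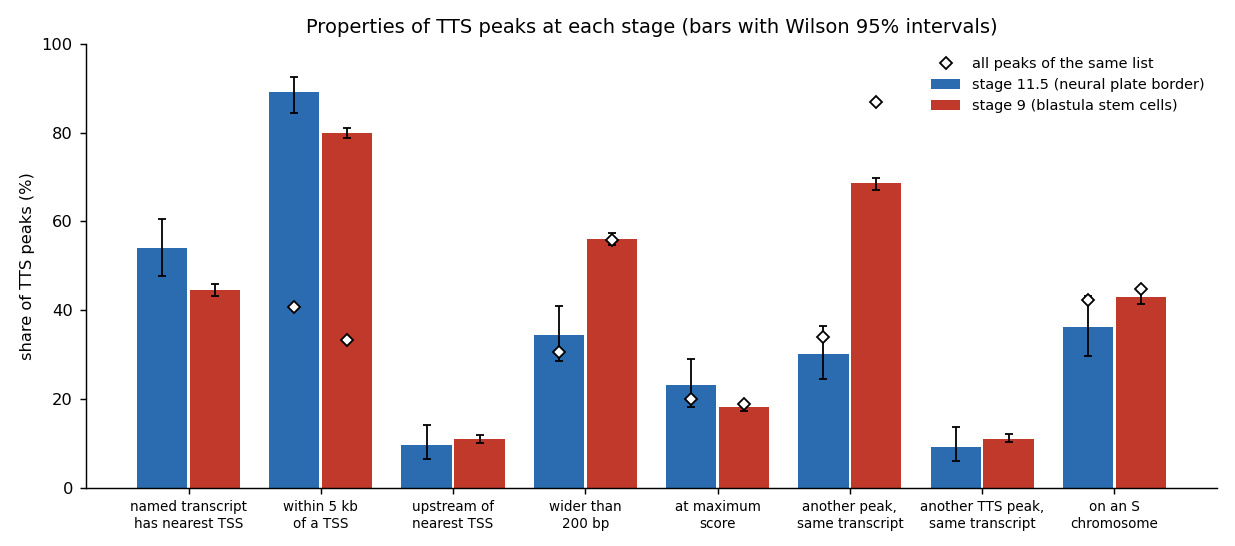
Share of TTS peaks (%) with each of 8 properties at stage 11.5 (blue, 229 peaks) and stage 9 (red, 4776 peaks), with Wilson 95% intervals as bars of counting error (for S chromosomes 188 peaks at stage 11.5 and 4436 at stage 9). Diamonds give the share over all peaks of the same list where it was computed, and they show that the large stage differences in width (34.5% at stage 11.5, 56.1% at stage 9) and in another peak of the same transcript (30.1% at stage 11.5, 68.6% at stage 9) accompany those of the whole lists.

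The last question was how far the TTS peaks of the stages fall at the same places. Of the stage 11.5 TTS peaks, 156 of 229 (68.1%, 61.8 to 73.8%) shared 1 bp or more with a stage 9 peak, beside 65.2% of all stage 11.5 peaks. The other stage 11.5 peaks did so in 65.1% of cases, and the difference of 3.01 percentage points did not pass (adjusted exact p = 0.476). Of the stage 9 TTS peaks, 166 of 4776 (3.48%, 2.99 to 4.03%) overlapped a stage 11.5 peak, beside 2.72% of all stage 9 peaks. That was 0.784 points more than among the other stage 9 peaks (2.69%, odds ratio 1.30, adjusted exact p = 0.00459). The difference fell to 0.499 points and did not pass with a minimum area of 40 (adjusted exact p = 0.138), and it also did not pass when 50% of the peak had to be covered (0.177 points, adjusted exact p = 0.342) or when its centre had to lie inside the other peak (0.278 points, adjusted exact p = 0.342).

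Against exon peaks alone, the TTS peaks of stage 11.5 were shared more often. Of 283 exon peaks, 56.5% overlapped a stage 9 peak, 11.6 percentage points fewer than among TTS peaks (adjusted exact p = 0.0107). At stage 9, 3.48% of TTS peaks and 2.54% of 5867 exon peaks were shared, a difference of 0.936 points (adjusted exact p = 0.00771). The comparison with exon peaks was chosen after the data had been seen. Among exon, intron, promoter and intergenic peaks, exon peaks had the lowest share at stage 11.5. Promoter peaks (69.2%) and intron peaks were shared more often than TTS peaks at that stage, and intergenic peaks (64.5%) less often. At stage 9 promoter peaks (3.86%) were shared more often than TTS peaks, and intron (2.27%) and intergenic peaks (2.61%) less often. The differences from these other classes were not tested. At stage 11.5 the shared peaks were 160 of 283 exon, 1152 of 1537 intron, 436 of 630 promoter and 1351 of 2094 intergenic peaks. Of all 5071 other peaks, 3302 were shared. That total also holds the peaks without a class, and their share was not computed separately.

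Most overlapping peaks were labelled with the same transcript end in both lists. HOMER labels a peak by the place of its centre, so peaks that overlap tend to receive the same label. These shares were not set against those of other classes. Of the 156 shared stage 11.5 TTS peaks, 145 (92.9%) overlapped a stage 9 TTS peak, 6 a promoter peak, 4 an intron peak and 1 an exon peak. For 141 (90.4%) it was a TTS peak of the same named transcript. Counted by transcript, 150 carried a TTS peak at both stages, which is 69.1% of the 217 transcripts at stage 11.5 and 3.33% of the 4508 at stage 9. Of the 217 transcripts at stage 11.5, 194 had some stage 9 peak and 23 had none.

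Overlap depended on the width of the peak, among TTS peaks and among the other peaks alike. At stage 11.5, 68 of 79 TTS peaks over 200 bp (86.1%) and 88 of 150 narrower ones (58.7%) were shared (odds ratio 4.36, adjusted exact p = 3.80e-05). At stage 9 these shares were 5.33% of the wider and 1.10% of the narrower peaks (odds ratio 5.08, adjusted exact p = 1.77e-16). At stage 11.5 the share was 47.1% up to 100 bp, 68.8% over 100 and up to 200 bp, 89.1% over 200 and up to 300 bp and 81.8% above, and at stage 9 it was 7.22% above 300 bp and 1.56% or less in each narrower class. In the same classes the other peaks were shared in 42.6%, 68.8%, 83.3% and 88.9% of cases at stage 11.5. At stage 9 the other peaks were shared in 6.07% of cases above 300 bp and 1.04% or less in each narrower class. The relation to width was therefore not particular to TTS peaks. At stage 9 the relation to width did not pass when 50% of the peak had to be covered (adjusted exact p = 0.604).

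**Figure D4:**
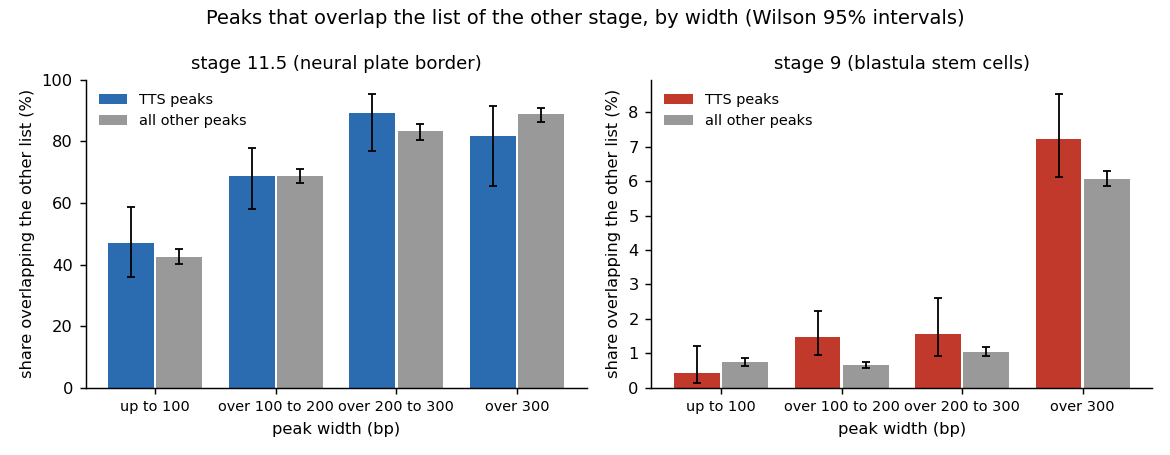
Share of peaks (%) overlapping the list of the other stage by 1 bp or more, in 4 classes of peak width (bp), for TTS peaks (coloured) and all other peaks of the same list (grey), with Wilson 95% intervals. The left panel shows stage 11.5 and the right panel stage 9, on different scales, and the share of TTS peaks was lowest up to 100 bp (47.1% at stage 11.5, 0.414% at stage 9). In that class the others had 42.6% at stage 11.5 and 0.737% at stage 9. At over 100 to 200 bp the share was 68.8% for TTS peaks and 68.8% for the others at stage 11.5, and 1.46% (0.946 to 2.24%) for TTS peaks and 0.645% (0.565 to 0.737%) for the others at stage 9.

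The score was related to overlap in opposite directions at the 2 stages. At stage 11.5, 29 of 53 TTS peaks at the maximum score (54.7%, 41.5 to 67.3%) and 127 of 176 below it (72.2%, 65.1 to 78.3%) were shared, so the highest-scoring peaks were shared less often (adjusted exact p = 0.0311). At stage 9, 115 of 874 at the maximum (13.2%, 11.1 to 15.6%) and 51 of 3902 below it (1.31%, 0.996 to 1.71%) were shared (adjusted exact p = 4.49e-48). The stage 11.5 difference did not pass on assembled chromosomes alone (57.1% at the maximum, 75.8% below it, adjusted exact p = 0.0710), with 1 peak per transcript (59.1% and 72.8%, adjusted exact p = 0.155) or among peaks at or above the median score of their list (49.1% and 54.9%, adjusted exact p = 0.671). Whether the relation itself differed between the stages was not tested. Wider TTS peaks reached the maximum more often. At stage 9, 36.2% of those over 300 bp and 2.76% of those up to 100 bp were at the maximum. At stage 11.5 these shares were 36.4% and 18.6%. With 50% of the peak covered, 4.23% at the maximum and 0.205% below it were shared at stage 9 (adjusted exact p = 1.04e-19). The part of width in the score relation was not tested, and the relation was not set against that of the whole lists.

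At stage 11.5, 66.9% of the peaks whose named transcript was nearest and 69.5% of the others were shared, which did not pass (-2.59 percentage points, adjusted exact p = 0.799). At stage 9 they were shared more often, in 91 of 2128 cases (4.28%) against 75 of 2648 (2.83%, adjusted exact p = 0.0171). TTS peaks with another peak on their transcript were shared in 58.0% of cases and those without one in 72.5% at stage 11.5 (adjusted exact p = 0.0586), and in 3.42% and 3.60% at stage 9 (adjusted exact p = 0.799). With transcripts taken from the nearest promoter alone, the stage 11.5 values were 54.5% and 72.4% and passed (adjusted exact p = 0.0260).

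At the shared places the peaks of the stages differed in size. The 156 shared stage 11.5 TTS peaks formed 160 pairs with stage 9 peaks, and the stage 9 peak was wider in 135 pairs (84.4%). It had the larger area in 136 (85.0%), a count that is not independent of width. Area is the product of score and width, and the score is capped. In 110 pairs (68.8%) the stage 11.5 peak lay wholly inside the stage 9 peak. The median widths in these pairs were 184 bp at stage 11.5 and 548 bp at stage 9, and the centres lay a median of 73.8 bp apart. The maximum score was reached by the stage 11.5 peak in 32 of the 160 pairs and by the stage 9 peak in 114. The stage 9 peaks of these pairs were thus wide and high-scoring beside all stage 9 TTS peaks, which had a median width of 228.5 bp and were at the maximum in 18.3% of cases. A few of the paired stage 9 peaks were promoter, intron or exon peaks. Since a wide peak is more easily overlapped by 1 bp, choosing pairs by overlap itself favours wide stage 9 peaks.

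**Figure D5:**
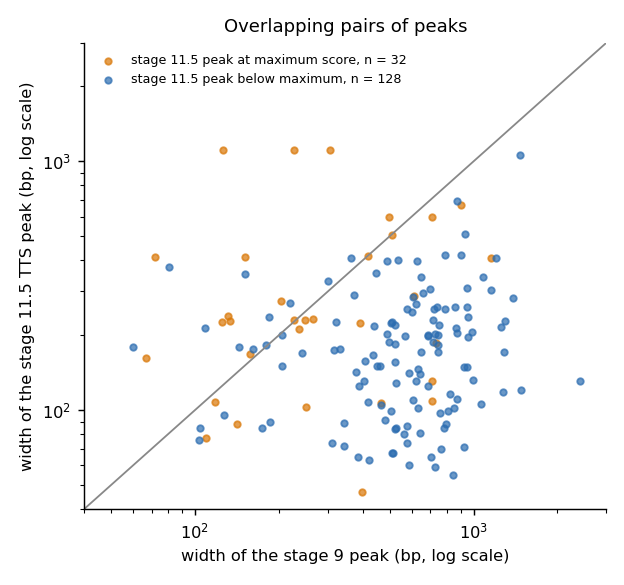
Width (bp, log scale) of each stage 11.5 TTS peak on the vertical axis and of the stage 9 peak it overlaps on the horizontal axis, for 160 pairs, with the line of equal width. Points below the line, 135 of 160, have the wider peak at stage 9, and orange points mark the 32 pairs whose stage 11.5 peak reached the maximum score.

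The 73 stage 11.5 TTS peaks without a stage 9 overlap were narrow, with a median width of 97 bp against 182.5 bp for the shared ones. The maximum score was reached by 24 of them (32.9%). A stage 9 peak lay within 1 kb of 26 of them, at 1 to 10 kb from another 26 and at over 10 kb from 17, and 4 were on sequences without any stage 9 peak. Of the stage 11.5 TTS peaks on unplaced scaffolds, 20 of 41 (48.8%) were shared, and of those on assembled chromosomes, 136 of 188 (72.3%). The other stage 11.5 peaks were shared in 69.8% of cases on assembled chromosomes and in 65.1% over their whole list. A lower share on unplaced scaffolds was therefore not particular to TTS peaks.

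Single regions show these patterns. Coordinates are those of the Xenopus laevis genome 9.2, and since the internal identifiers matched no entry of the gene table used, the transcripts have no gene names here. The stage 11.5 TTS peak of largest area was at chr5S:59110902-59112008, 1107 bp wide and at the maximum score of 1000. Its nearest TSS, 383 bp away, belonged to another transcript, while the start of its named transcript lay 3802 bp away. It spanned 3 separate stage 9 peaks of 126, 226 and 305 bp, each also at a score of 1000, so that here the stage 11.5 peak was the wider one.

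The largest peak whose named transcript was also the nearest was at chr2S:104235698-104236758 at stage 11.5, 1061 bp wide with a score of 767 and 469 bp from the TSS. It lay inside a stage 9 peak of 1472 bp with a score of 1000 at chr2S:104235657-104237128, itself among the 5 largest of its kind at stage 9. At chr9_10S:66535994-66536683 the stage 11.5 peak was 690 bp wide with a score of 855 and the stage 9 peak 875 bp wide with a score of 1000, and the start of the transcript that ends there was 160 bp away. At chr9_10L:3443972-3444569 both peaks had a score of 1000, with 598 bp at stage 11.5 and 707 bp at stage 9, and the start was 4339 bp away. Each of these places thus had a high TTS peak at both stages.

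On chromosome 8L the stages were nearly identical at chr8L:96893796-96894213, where both peaks were 418 bp wide with a score of 1000 and were offset by 4 bp. The next peak along, at chr8L:96904391-96904985, was 595 bp wide at stage 11.5 and 496 bp at stage 9, again with scores of 1000, and lay 2602 bp upstream of the nearest TSS. This stretch, chr8L:96796904-96904985, held 5 TTS peaks of 4 transcripts at stage 11.5, of which 4 were at the maximum score and 3 overlapped stage 9 peaks. On Scaffold20, the peak at 17671 to 18175 was 505 bp wide at stage 11.5 and 508 bp at stage 9, and the peak at 8631 to 9297 overlapped a stage 9 promoter peak of 898 bp with a score of 493. The peak at chr7S:85260467-85260754 was 288 bp wide at stage 11.5 and 611 bp at stage 9. The 10 stage 11.5 TTS peaks chosen were the 5 of largest area with the named transcript nearest and the 5 of largest area among the others. They are therefore not the 10 largest of all. Of these, only that at Scaffold77:282318-282769, 452 bp wide with a score of 1000 and 331 bp from its start, had no stage 9 overlap.

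Of the 10 largest stage 9 TTS peaks, chosen likewise, 5 had no stage 11.5 overlap. The widest, at chr3L:57949461-57951945, measured 2485 bp with a score of 635, lay 1279 bp from the start of its named transcript, and had no stage 11.5 overlap. The peak at chr9_10L:21627007-21628874, 1868 bp wide with a score of 850, had none either, and neither did those at chr6S:26395801-26397368, chr5L:40418461-40419969 and chr9_10L:83934624-83935963. At 3 of the others the stage 11.5 peak was small, of 121 bp and a score of 230 at chr2L:121515467-121516949, of 282 bp and 259 at chr2S:43720080-43721466, and of 171 bp and 152 at chr5S:120467359-120468647. The remaining ones were the chr2S:104235657-104237128 peak described above and the peak at chr2L:121857836-121859406, which overlapped a stage 11.5 peak of 553 bp and a score of 1000 annotated to an exon.

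The transcripts with the most TTS peaks were given for each stage, and where transcripts tied in number the one with the largest summed area was taken. At stage 11.5, transcript rna36750 had 4 TTS peaks within chr7L:83773245-83774225, of 131, 109, 103 and 231 bp and all at a score of 1000, and its own start was nearest. A stage 9 peak of 711 bp overlapped the first 2 of them and one of 226 bp the last. Transcript rna94048 had 3 on chromosome 3L, of 284, 63 and 88 bp, all at a score of 1000, upstream of another transcript's start and without a stage 9 overlap. At stage 9, rna61643 had 4 TTS peaks on Scaffold74 with scores of 131, 226, 458 and 366, and rna18299, 1 of 7 transcripts tied at 3 TTS peaks, had them on chromosome 8L with scores of 259, 386 and 1000, none of them overlapping a stage 11.5 peak. Over every transcript with 3 or more TTS peaks, 7 of 7 peaks of 2 transcripts were at the maximum score at stage 11.5, and 1 of 25 peaks of 8 transcripts at stage 9.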

How the data were processed

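Sox3 ChIP-seq libraries were trimmed by the authors with fastp, aligned with bowtie2 to Xenopus laevis 9.2 and handled with SAMtools, and the submitters' processing notes also name Picard. Peaks were called for each stage with Genrich (control libraries as background, mitochondrial sequence excluded, minimum area 20) and annotated with HOMER. Tool versions are not given in the sources used here. The stage 9 list states in its header that all replicates were used, which the stage 11.5 list does not state. The deposited score is the peak caller's whole number, at most 1000. Other deposited columns, per the file headers, give positions, annotation, distance to TSS and nearest promoter, and no column of other samples was left out (0).

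From these, widths, areas, overlaps, starts (solved from peaks sharing a nearest promoter, tolerance 1 bp) and shares were computed with Python 3.11.15, numpy 2.4.6, pandas 2.3.3 and scipy 1.17.1, with plots by matplotlib 3.10.9, and the steps were tested on simulated data. Coordinates are 1-based. Fisher's exact tests were two-sided, with Benjamini-Hochberg adjustment over 9 comparisons of stages, 8 with the other peaks of a list and 8 within TTS peaks, and a threshold of 0.05. Members, properties and limits were chosen with earlier results of these data known. Regions named were the 5 of largest area per stage, with and without the named transcript nearest, the 5 of largest area shared with a stage 9 TTS peak of the same transcript, and the 2 transcripts per stage with the most TTS peaks (ties by summed area). None of 6933 identifiers in TTS peaks matched the gene table (assembly 10.1), so 0 genes were named, and sequences were not analysed here. Alternatives covered the peak set, minimum area, score, overlap rule, distance and width limits and transcript assignment. The lists carry no reads, so the depth of a sample is unknown.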

Additional observations from a re-analysis of the deposited data

How the results depend on the processing

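Over 157 recomputed comparisons, 117 had the direction and call reported above, 16 lost the threshold, 10 gained it and 14 changed direction. Differences are in percentage points with the adjusted p of Fisher's exact test in parentheses, stage 11.5 minus stage 9, TTS peaks minus the others, or peaks with the property minus those without it. On assembled chromosomes only, the named transcript as nearest differed by 8.51 (adjusted exact p = 0.0546), another TTS peak at the same end by 0.147 (1.00), and overlap by nearest transcript at stage 9 by 1.07 (0.0782), by maximum score at stage 11.5 by -18.7 (0.0710) and by another peak at stage 9 by 0.430 (0.594). With a minimum area of 40, the share at the maximum score differed by 14.7 (3.69e-04), another TTS peak by 5.60 (0.0243), overlap at stage 9 by 0.499 (0.138), and overlap by another peak by -21.0 at stage 11.5 (0.0238) and 0.235 at stage 9 (0.754). That cut removed mainly peaks below the maximum score, so the difference in the share at the maximum cannot be separated from it. Among peaks at or above the median score of their list, the TTS share differed by 0.967 (0.0219), the share within 5 kb by 5.68 (0.192), another TTS peak by 10.6 (5.81e-05), overlap at stage 11.5 by -0.708 (1.00), the maximum score against other peaks at stage 9 by 0.454 (0.881), and overlap by width at stage 9 by 1.49 (0.111), by maximum score at stage 11.5 by -5.87 (0.671) and by another peak at stage 9 by 0.567 (0.631). With 1 TTS peak per transcript, width at stage 9 differed from other peaks by 2.35 (0.00364), the maximum score at stage 9 by 0.345 (0.640), and overlap by maximum score at stage 11.5 by -13.7 (0.155). With 50% of the peak covered, overlap at stage 9 differed by 0.177 (0.342), overlap by nearest transcript by 1.80 at stage 11.5 (0.785) and 0.589 at stage 9 (0.0822), by width at stage 9 by 0.233 (0.604), by maximum score at stage 11.5 by -15.5 (0.0822) and by another peak at stage 11.5 by -17.4 (0.0448). With the centre inside, overlap at stage 9 differed by 0.278 (0.342), and overlap at stage 11.5 by nearest transcript by 0.998 (0.892) and by another peak by -18.8 (0.0124). Within 1 kb in place of overlap, stage 11.5 TTS peaks differed from the others by 6.83 (0.0450), and at stage 9 overlap differed by nearest transcript by 0.852 (0.242) and by another peak by 1.00 (0.242). With a TSS limit of 2 kb the share near a start differed by 6.37 (0.106), and with a width limit of 300 bp overlap by width at stage 11.5 by 16.0 (0.0968). With the transcript taken from the nearest promoter only, overlap by another peak differed by -17.9 at stage 11.5 (0.0260) and 0.0723 at stage 9 (0.936). Against exon peaks, chosen after seeing the data, overlap at stage 11.5 differed by 11.6 (0.0107) and the maximum score by 10.4 at stage 11.5 (0.00602) and 2.89 at stage 9 (3.17e-04). The cause of these changes was not tested.

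No paired analysis was possible because the libraries of a stage share 1 peak list. For the same reason no library was left out, and no difference between the stages was set against a spread between replicates. The alternative of 1 peak per transcript was not run for the TTS share or for another TTS peak at the same end, and assembled chromosomes only leaves the S share as it is. Depth is unknown, so absence of a peak from the shorter stage 11.5 list cannot be told apart from a signal below detection.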

Other observations

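At stage 11.5 the share of TTS peaks at the maximum score was 31.5% (Wilson 95% interval 23.9 to 40.1%, 39 of 124) where the named transcript had the nearest start and 13.3% (8.11 to 21.1%, 14 of 105) where another transcript did. At stage 9 these shares were 20.3% (18.6 to 22.1%) and 16.7% (15.3 to 18.2%). The split was noticed in the data, so no test is given. On unplaced scaffolds 18 of 41 stage 11.5 TTS peaks (43.9%) were at the maximum score, and on assembled chromosomes 35 of 188 (18.6%), while at stage 9 the shares were 22.4% and 18.0%. The other stage 11.5 peaks were at the maximum in 13.4% of cases on assembled chromosomes and in 19.8% over their whole list. A higher share on unplaced scaffolds was therefore not particular to TTS peaks. The part of the unplaced scaffolds in the difference by nearest start was not tested.

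Chromosome 8L held 25 of the 229 TTS peaks at stage 11.5 (10.9%) and 5.49% of all stage 11.5 peaks, and 302 of 4776 at stage 9 (6.32%) and 4.75% of all stage 9 peaks. Chromosome 3L held 21 TTS peaks at stage 11.5 (9.17%, beside 5.66% of all peaks) and 318 at stage 9 (6.66%, beside 5.59% of all peaks). Chromosomes 4L, 4S and 8S had 3 TTS peaks each at stage 11.5. A stretch of chromosome 3L, chr3L:4021774-4507681, held 6 TTS peaks of 3 transcripts at stage 11.5, all 6 at the maximum score and none with its named transcript nearest. Of the 6, 3 overlapped a stage 9 peak. The fixed chromosome window that contains this stretch held 20 stage 11.5 peaks. At stage 9 the window with the most TTS peaks had them at chr9_10S:11444-877431. These were 17 TTS peaks of 14 transcripts, 5 of them at the maximum score and none overlapping a stage 11.5 peak. The whole window held 107 stage 9 peaks. Each stretch runs from the first to the last TTS peak of its window, and the windows were found by their number of TTS peaks, so no test is given.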
